A study of Mus musculus with 136 samples.

Results

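The 34 genes described here carry 1-carbon units from serine and glycine through folate into thymidylate, methionine and purines. They were taken by name, as a list of known pathway members, and all 34 were found among the 47643 genes of the deposited count table. The table holds 136 libraries of NOD mice at E8.5, whose females develop autoimmune diabetes without treatment, and 132 of these remained once 4 repeat libraries were set aside. Each of 66 concepti gave 1 embryo library and 1 library of its yolk sac, made with a 3′ tag method that counts molecules by a unique identifier. Of these concepti 33 came from 12 litters of diabetic dams (blood glucose at euthanasia 423 to 595 mg/dl, with 1 dam given only as a lower limit), and 33 came from 10 litters of normal dams (105 to 164 mg/dl). Age was set by somite pairs counted in the embryo, and a yolk sac took the stage of its own embryo. Diabetic and normal groups of the 5-6 somite pair stage held 17 concepti each (9 and 10 litters), and those of the 7-9 stage held 16 each (6 and 7 litters). All dams were of the same strain and were fed the same chow, and diabetic dams had been mated to normoglycemic males. Littermates share 1 dam, and up to 7 of the 16 diabetic concepti of the 7-9 stage shared 1 litter, so each difference between diabetic and normal groups was also fitted with a random effect of litter (the litter block) and on the sum of each litter's counts (litter sums).

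The total count per library ranged from 1017901 to 5757211 with a median of 2337159. Markers of the neural plate and tube (5 genes) summed to 660 to 2012 normalized counts in embryos and to 0 to 97.2 in yolk sacs, and no gene among them was at 0 throughout a group. Markers of the visceral endoderm (10 genes, such as Afp and Ttr) summed to 10372 to 53508 in yolk sacs and to 96.3 to 3361.5 in embryos, so every tissue label matched its markers, and the embryo libraries also held visceral endoderm RNA. The library with the lowest total, replicate 15 of the diabetic yolk sacs of the 7-9 stage, stood apart: Gm42418 made up 21.2% of its counts against a median of 3.61% in the rest of its group, mt-Rnr2 8.14% against 1.41%, and the 34 genes together 0.240% against 0.414% to 0.504%. Sums of trophoblast and decidua markers had higher medians in yolk sacs of diabetic dams (79.3 at 5-6 and 30.3 at 7-9) than of normal dams (15.3 and 13), and their part in any result below was not tested. In bulk tissue, fewer cells of a type and less RNA per cell cannot be told apart.

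Folate enters cells through the receptor Folr1, which binds it at the surface and is taken up by endocytosis, or through the carriers Slc19a1 and Slc46a1. Serine, made from a glycolytic intermediate by Phgdh, Psat1 and Psph, gives up a carbon to tetrahydrofolate through Shmt1 in the cytosol and Shmt2 in mitochondria, and glycine gives up another through the glycine cleavage system (Gldc, Amt, Gcsh). The loaded folates feed thymidylate synthesis (Tyms), remethylation of homocysteine (Mtr) and 2 steps of the purine ring (Gart and Atic), and mouse embryos that lack Folr1, Slc19a1, Mthfd1l, Gldc or Amt are known to die or to show neural tube defects.

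The first comparison asked how the genes are divided between the embryo and the yolk sac that surrounds and feeds it. The largest difference was that of Folr1, which was 29.8-fold higher in yolk sacs at 5-6 and 35.6-fold higher at 7-9 somite pairs, and all 3 serine synthesis genes and all 3 glycine cleavage genes were higher in yolk sacs too. Mthfd2l, a mitochondrial folate enzyme, showed the largest difference in the other direction. Of the 31 genes with enough counts to test, 13 were higher and 13 lower in yolk sacs at 5-6 somite pairs (edgeR quasi-likelihood test, adjusted p under 0.05), where 39.4% of all 11677 genes tested were higher and 39.8% lower. At 7-9 somite pairs 15 were higher and 13 lower, against 38.7% and 42.6% of 11577 genes. The number of genes called was thus near that of the whole transcriptome, in which most genes differed between these tissues, and what follows describes the sizes and the grouping of the differences. The median log2 difference was 0.05 and 0.09 over the 31 genes and −0.003 and −0.04 over all genes tested.

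The promoters of the 6 serine synthesis and glycine cleavage genes are printed here because these genes were high in yolk sacs together. Each sequence is the 250 bases before the RefSeq transcription start (GRCm38.p6), written 5′ to 3′ on the strand of the gene, and capitals mark each CCAAT or, for the opposite strand, ATTGG.
Phgdh, chr3:98339970-98340219, minus strand: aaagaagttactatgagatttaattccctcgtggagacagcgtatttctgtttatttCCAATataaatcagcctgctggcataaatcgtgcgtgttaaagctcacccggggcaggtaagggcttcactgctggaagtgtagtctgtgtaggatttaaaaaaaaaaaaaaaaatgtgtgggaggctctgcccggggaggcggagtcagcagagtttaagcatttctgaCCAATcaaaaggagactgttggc
Psat1, chr19:15925060-15925309, minus strand: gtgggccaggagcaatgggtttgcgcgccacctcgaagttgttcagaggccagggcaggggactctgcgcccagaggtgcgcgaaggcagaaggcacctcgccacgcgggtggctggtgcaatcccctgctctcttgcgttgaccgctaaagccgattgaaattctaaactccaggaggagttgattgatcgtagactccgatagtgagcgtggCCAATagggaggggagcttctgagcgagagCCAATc
Psph, chr5:129787254-129787503, minus strand: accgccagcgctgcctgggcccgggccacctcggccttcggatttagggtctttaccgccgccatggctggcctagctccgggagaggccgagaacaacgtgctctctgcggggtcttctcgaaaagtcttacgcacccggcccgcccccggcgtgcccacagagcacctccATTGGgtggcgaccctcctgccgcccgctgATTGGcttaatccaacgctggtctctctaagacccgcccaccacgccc
Gldc, chr19:30175442-30175691, minus strand: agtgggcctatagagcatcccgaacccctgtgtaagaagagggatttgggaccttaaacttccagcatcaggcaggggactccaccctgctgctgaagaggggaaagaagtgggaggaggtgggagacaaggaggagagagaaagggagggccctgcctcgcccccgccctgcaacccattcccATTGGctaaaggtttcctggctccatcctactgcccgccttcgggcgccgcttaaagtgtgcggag
Amt, chr9:108296655-108296904, plus strand: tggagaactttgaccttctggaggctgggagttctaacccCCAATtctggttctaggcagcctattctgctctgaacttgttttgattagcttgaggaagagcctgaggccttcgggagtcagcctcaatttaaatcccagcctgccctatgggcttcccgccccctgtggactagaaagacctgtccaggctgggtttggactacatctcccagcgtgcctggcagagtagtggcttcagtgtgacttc
Gcsh, chr8:116993499-116993748, minus strand: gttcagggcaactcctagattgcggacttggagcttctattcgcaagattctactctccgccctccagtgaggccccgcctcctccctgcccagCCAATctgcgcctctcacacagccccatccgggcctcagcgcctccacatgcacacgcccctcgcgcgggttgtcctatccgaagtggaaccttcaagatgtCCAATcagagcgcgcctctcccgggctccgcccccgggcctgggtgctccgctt
All 6 windows held CCAAT on 1 strand or the other, whereas a second annotated start of Psat1 (chr19:15924623-15924872) held none. Over all genes of the list, 31 had a promoter in the table, with 35 windows between them, and Folr1, Aldh1l2 and Pfas had none there. CCAAT was found in 20 of the 35 windows (57.14%) and in 33.85% of 32851 windows of the same length, searched on both strands. It was not confined to genes high in yolk sacs. Among genes lower in yolk sacs at both stages, Mthfd2, Mtr, Ahcy, Mat2a, Mat2b and Paics held it. Mthfd2l, Mthfd1l, Slc46a1, Impdh2 and Gmps did not. The element TGATGNAA, read by Atf4, was found in 0 of 35 windows against 3.452% of all. CACGTG, read by Myc and its relatives, was found in 5 of 35 (Atic, Cbs, Impdh2, Paics and Tyms), or 14.29%, against 6.021% of all. These are matches of letters and not binding sites.

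**Figure D1:**
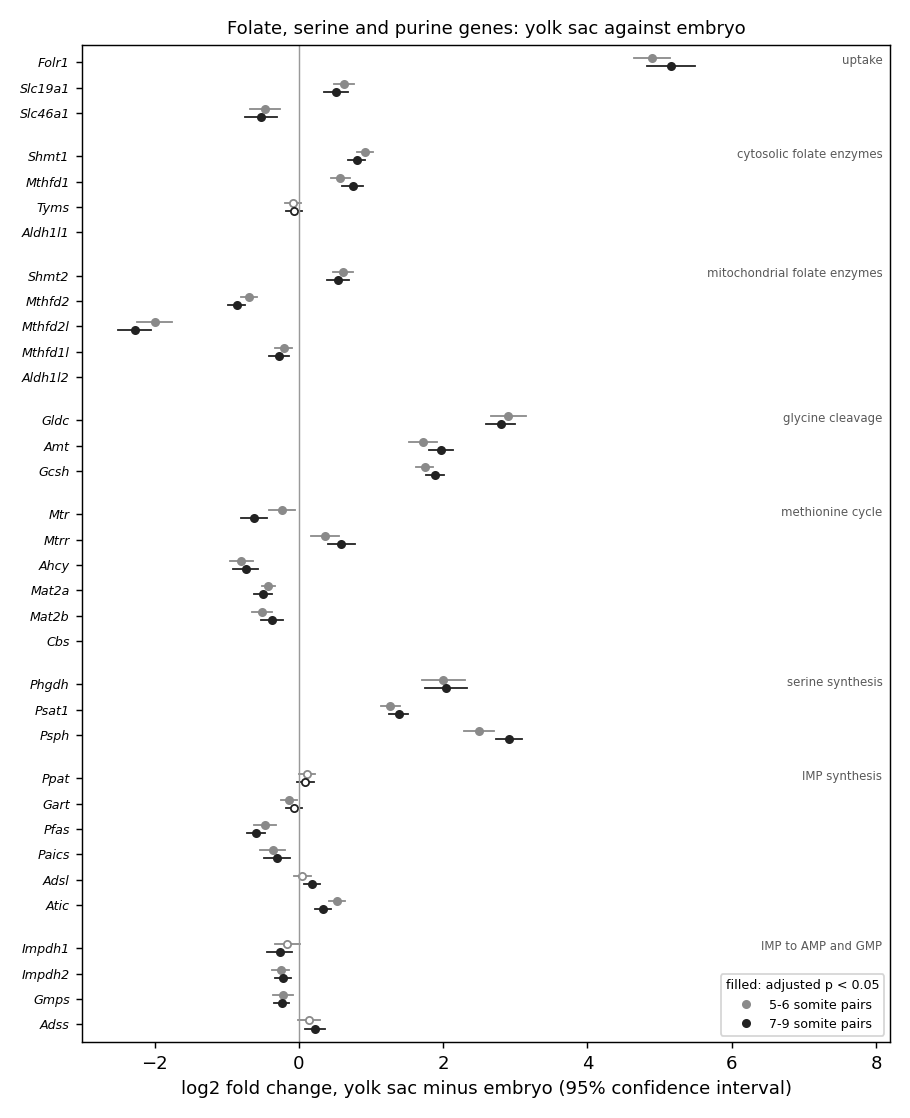
Log2 fold change (x axis, yolk sac minus embryo, with 95% confidence interval) of each gene (y axis, grouped by role) at 5-6 (grey) and 7-9 (black) somite pairs; filled points passed an adjusted p of 0.05, and Aldh1l1, Aldh1l2 and Cbs were not tested. Folr1 lies near 5 at both stages, the glycine cleavage and serine synthesis genes lie between 1.27 and 2.91, and Mthfd2l lies near −2.

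Of the uptake genes, Folr1 ranged in yolk sacs of the 5-6 stage from 143 through a median of 272 to 533 normalized counts (n = 34), and in embryos of that stage from 2.61 through 8.95 to 20.6 (n = 34). At 7-9 somite pairs it ranged from 237 through 399 to 844 in yolk sacs and from 2.13 through 7.26 to 53.1 in embryos (n = 32 each). Every yolk sac lay above every embryo. The log2 difference was 4.90 ± 0.13 (SE, adjusted p = 1.49e-47, edgeR) at 5-6 and 5.15 ± 0.17 (adjusted p = 2.69e-40) at 7-9 somite pairs. The embryo mean of Folr1 came to 3.48% (5-6) and 2.90% (7-9) of the yolk sac mean, while the 10 visceral endoderm markers in embryos stood at 1.57% to 4.87% and 1.3% to 3.32% of their yolk sac means. In each embryo group Folr1 was higher in the library with the highest sum of these markers than in that with the lowest. The pair of values was 2.15 and 5.70 CPM (counts scaled to the library total) in normal and 1.54 and 9.09 in diabetic embryos of 5-6 somite pairs, and 1.78 and 8.93 in normal and 1.07 and 24.9 in diabetic embryos of 7-9. A repeat library of the embryo with 24.9 CPM gave 6.09 CPM of Folr1, with a marker sum of 488 against 1572 CPM. Over the 4 pairs of repeat libraries the median absolute log2 ratio of the listed genes was 0.0527 to 0.0843. The largest ratio of any gene compared was 2.03 in the pair of that embryo and 0.226 to 0.556 in the other pairs. The part of visceral endoderm RNA in the embryo level of Folr1 was not tested.

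Slc19a1, the reduced folate carrier, was also higher in yolk sacs, by 0.62 ± 0.07 (adjusted p = 1.21e-12) and 0.51 ± 0.08 (adjusted p = 7.24e-08) on the log2 scale. Slc46a1, the proton-coupled folate carrier, was instead higher in embryos, with medians of 25.4 and 22.7 normalized counts against 17 and 17.2 in yolk sacs, and ranges that overlapped. Its log2 difference, yolk sac minus embryo, was −0.47 ± 0.10 (adjusted p = 4.04e-05) and −0.52 ± 0.11 (adjusted p = 2.13e-05). The count of Folr1 was at most 0.606 of that of Slc19a1 in any embryo and exceeded it in 64 of 66 yolk sacs, a statement about 3′ tag counts, which carry no correction for transcript length.

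The serine synthesis genes were higher in the yolk sac than in the embryo of the same conceptus in 66 of 66 concepti. Phgdh, the first enzyme, was low in both tissues, with 0.759 to 20.5 normalized counts (median 7.00) in embryos and 12.0 to 65.3 (median 31) in yolk sacs at 5-6 somite pairs. At 7-9 it ran from 2.60 to 29.3 (median 8.97) in embryos and from 22.5 to 74.7 (median 42.4) in yolk sacs, and the tissues overlapped at both stages. Psat1, the transaminase of the second step, had medians of 772 and 663 in embryos against 1729 and 1640 in yolk sacs, and the tissues overlapped only at 5-6 somite pairs, where the highest embryo had 1155 and the lowest yolk sac 1085. Psph, the phosphatase that ends the pathway, ranged from 56.1 to 194 over all embryos and from 269 to 1307 over all yolk sacs, with no overlap. The log2 differences were 2.0 ± 0.15 and 2.04 ± 0.14 for Phgdh, 1.27 ± 0.07 and 1.39 ± 0.07 for Psat1, and 2.49 ± 0.10 and 2.91 ± 0.09 for Psph (adjusted p from 8.3e-21 to 5.58e-42, edgeR). Summed, the 3 genes took a median of 3.23 to 3.99 of every 10000 counts in the embryo groups and 9.70 to 10.4 in the yolk sac groups.

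The glycine cleavage genes behaved in the same way, again in 66 of 66 concepti. Gldc, the decarboxylase, ranged from 27.8 to 135 normalized counts in embryos and from 232 to 870 in yolk sacs, and Gcsh, which carries the aminomethyl group between the enzymes, ranged from 344 to 634 and from 879 to 3083. Neither overlapped between the tissues. Amt, the aminomethyltransferase, ranged from 29.2 to 167 in embryos and from 92.7 to 615 in yolk sacs. Its lowest yolk sac value, like that of Gldc, was that of replicate 15 of the diabetic 7-9 group, the library described above. The tissues overlapped for Amt at 5-6 somite pairs too, where the highest embryo had 167 and the lowest yolk sac 130. The log2 differences were 2.90 ± 0.12 and 2.80 ± 0.10 for Gldc, 1.74 ± 0.06 and 1.89 ± 0.06 for Gcsh, and 1.72 ± 0.09 and 1.97 ± 0.08 for Amt (adjusted p from 1.29e-27 to 2.91e-39). The embryo mean of Gldc was 13.9% and 14.5% of the yolk sac mean, and that of Gcsh 31.1% and 27.3%, above the 1.3% to 4.87% of the visceral endoderm markers.

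**Figure D2:**
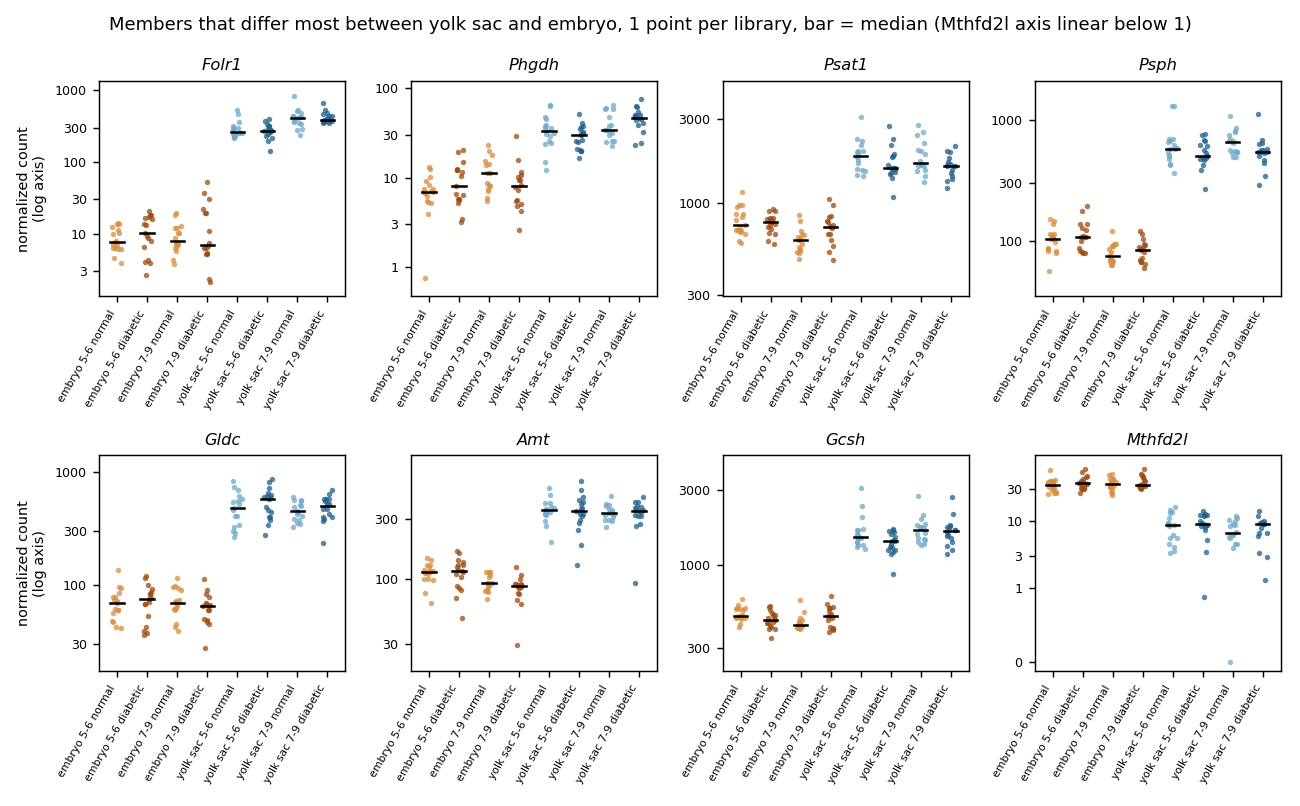
Normalized count (y axis, log scale; linear below 1 for Mthfd2l) of 8 genes in each library (points), by tissue, stage and condition of the dam (x axis), with a bar at the median of each group. In 7 panels the yolk sac groups lie above the embryo groups, in Mthfd2l they lie below, and within a tissue the normal and diabetic groups overlap throughout.

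The folate enzymes differed by compartment and by paralog. In the cytosol, Shmt1 was higher in yolk sacs (0.91 and 0.80 on the log2 scale) in 66 of 66 concepti, and Mthfd1, the trifunctional enzyme, was higher by 0.57 and 0.75, while Tyms was not called at either stage (−0.09 ± 0.06 and −0.07 ± 0.05). In mitochondria, Shmt2 was higher in yolk sacs by 0.61 and 0.54, and the genes of the later steps to formate (Mthfd2, Mthfd2l and Mthfd1l) were all lower. Mthfd2l ranged from 24.4 to 60.1 normalized counts in embryos and from 0 to 16.2 in yolk sacs without overlap, a log2 difference of −2.0 ± 0.12 (adjusted p = 3.51e-25) and −2.28 ± 0.12 (adjusted p = 7.6e-29). Its paralog Mthfd2 differed by −0.69 ± 0.05 (adjusted p = 3.07e-19) and −0.86 ± 0.06 (adjusted p = 2.46e-21), with medians of 407 and 373 in embryos against 237 and 192 in yolk sacs. Mthfd1l, the synthetase that releases formate, differed by −0.21 and −0.27. The ratio of Mthfd1 to Mthfd1l counts within a library had group medians of 0.599 to 0.654 in embryos and 1.04 to 1.32 in yolk sacs, and that of Mthfd2 to Mthfd2l 9.51 to 11.3 and 22.5 to 27. Aldh1l1 and Aldh1l2, which burn 10-formyl-folate to carbon dioxide, were too low to test: Aldh1l1 had no count in 56 of 66 embryos and 42 of 66 yolk sacs, and Aldh1l2 in 19 and 40.

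The methionine cycle genes were lower in yolk sacs with 1 exception, and took 7.61 to 8.50 of 10000 counts in embryo groups against 5.05 to 5.64 in yolk sac groups. Ahcy, which clears S-adenosylhomocysteine, had medians of 291 and 256 normalized counts in embryos against 157 and 155 in yolk sacs with overlapping ranges, a log2 difference of −0.80 ± 0.08 (adjusted p = 1.29e-14) and −0.74 ± 0.09 (adjusted p = 4.86e-12). Mat2b, a subunit of the S-adenosylmethionine synthetase, differed by −0.51 ± 0.07 (adjusted p = 2.02e-09) and −0.37 ± 0.08 (adjusted p = 1.91e-05), and the catalytic Mat2a by −0.43 and −0.50. Mtr, the methionine synthase, differed by −0.24 ± 0.09 (adjusted p = 0.0128) at 5-6 and −0.62 ± 0.09 (adjusted p = 6.64e-09) at 7-9 somite pairs. The exception was Mtrr, which reactivates Mtr and was higher in yolk sacs by 0.36 and 0.59. Cbs, which drains homocysteine into transsulfuration, was not tested, with at most 11.4 normalized counts in any library.

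The purine genes differed least. Of the 6 genes that build inosine monophosphate, Atic was higher in yolk sacs at both stages (0.53 and 0.34) and Adsl at 7-9 (0.18), whereas Pfas (−0.47 ± 0.08, adjusted p = 6.03e-08, and −0.59 ± 0.06, adjusted p = 1.62e-13), Paics (−0.36 and −0.30) and, at 5-6 somite pairs, Gart (−0.14) were lower. The call of Gart was lost in 5 of 19 fits that left out 1 litter, and that of Adsl in 1 of 14 that left out 1 litter or 1 library. Ppat, which commits the pathway, was not called at either stage. It lies on the strand opposite to Paics, with starts 276 bases apart and annotated 5′ ends that overlap. Of the 4 genes that lead on to AMP and GMP, Impdh2 and Gmps were lower at both stages and Impdh1 at 7-9 (−0.22 to −0.26), and Adss was higher at 7-9 (0.23). Genes on the opposite strand overlap the 3′ ends of Shmt1, Shmt2, Slc19a1, Impdh2 and Gart, and the strand setting of the deposited counts is not given in the sources used here.

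The second comparison asked what changed within a tissue between the younger and the older stage. Far fewer genes of the list passed the test than between tissues, and every change was below 1 on the log2 scale. In embryos 3 of 31 rose and 9 fell towards 7-9 somite pairs, against 15% of 11304 genes that rose and 15.8% that fell. In yolk sacs 7 rose and 5 fell, against 21.7% and 18.3% of 10857 genes. With the litter block 5 rose and 10 fell in embryos and 7 and 5 in yolk sacs. With litter sums, an alternative chosen after seeing the data, 3 rose and 3 fell in embryos and 5 and 5 in yolk sacs. Over all genes the calls in embryos went from 3484 to 3337 with the litter block and 1727 with litter sums. In yolk sacs they went from 4342 to 4269 and 3780. Within the list, the calls lost with litter sums were those of Psph, Psat1, Ppat, Atic, Mat2a and Mthfd2 in embryos (adjusted p from 0.0603 to 0.176) and of Impdh2 and Gmps in yolk sacs (0.0975 and 0.312). The sum of primitive erythroid markers was higher at the older stage in both tissues, with group medians of 35.4 and 41.4 that became 230 and 187 in embryos, and of 8426 and 8642 that became 18268 and 18126 in yolk sacs, and its part in the changes below was not tested.

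**Figure D3:**
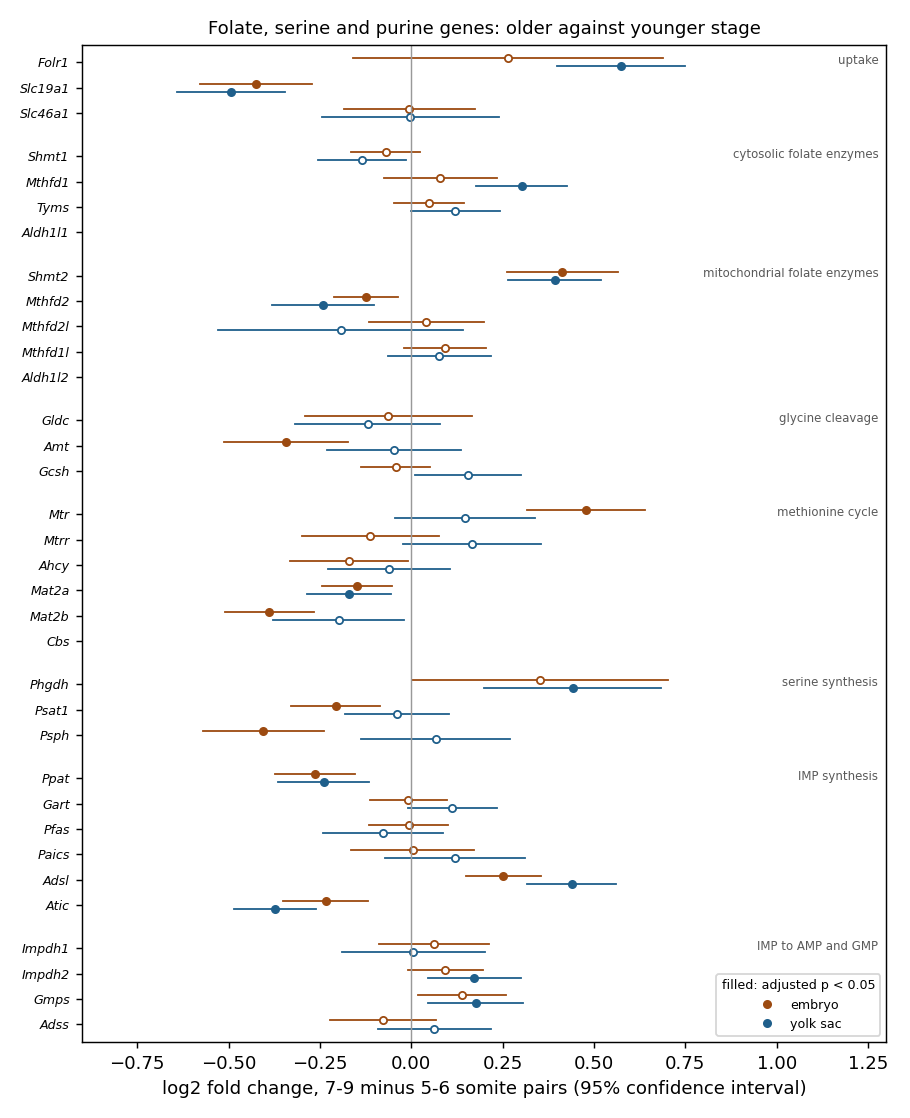
Log2 fold change (x axis, 7-9 minus 5-6 somite pairs, with 95% confidence interval) of each gene (y axis, grouped by role) in embryos (brown) and yolk sacs (blue); filled points passed an adjusted p of 0.05. Slc19a1, Ppat, Atic, Mthfd2 and Mat2a fell and Shmt2 and Adsl rose in both tissues, while Folr1 rose in yolk sacs by 0.57.

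The folate uptake genes of the yolk sac did not move together. Folr1 rose from a median of 272 to 399 normalized counts (log2 change 0.57 ± 0.09, adjusted p = 3.36e-07, edgeR), with ranges of 143 to 533 and 237 to 844 that overlapped. Slc19a1 fell from 168 to 121 (−0.49 ± 0.07, adjusted p = 2.27e-07), with ranges of 117 to 269 and 68.4 to 195. Slc46a1 was not called there (−0.003 ± 0.12). The sum of visceral endoderm markers also rose in yolk sacs, from group medians of 20299 and 22428 to 31449 and 32285, and its part in the rise of Folr1 was not tested. In embryos Slc19a1 fell likewise, from 119 to 85 (−0.43 ± 0.08, adjusted p = 1.75e-05), and Folr1 and Slc46a1 were not called.

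Shmt2, the mitochondrial source of 1-carbon units, rose in both tissues, from a median of 141 to 186 in embryos (0.41 ± 0.08, adjusted p = 2.36e-05) and from 218 to 268 in yolk sacs (0.39 ± 0.06, adjusted p = 1.25e-06). Shmt1 was not called in either. The ratio of Shmt2 to Shmt1 counts within a library had group medians that went from 0.483 to 0.796 in normal and from 0.659 to 0.900 in diabetic embryos, and from 0.467 to 0.652 and 0.608 to 0.772 in yolk sacs. Mthfd1 rose in yolk sacs from 201 to 248 (0.30 ± 0.06, adjusted p = 7.94e-05), and Mthfd2 fell there from 237 to 192 (−0.24 ± 0.07, adjusted p = 0.00417). In embryos Mthfd2 fell by a smaller amount (−0.12 ± 0.04, adjusted p = 0.0269), a call that was lost in 8 of 22 fits that left out 1 litter.

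In the methionine cycle, Mtr rose in embryos from a median of 174 to 224 (0.48 ± 0.08, adjusted p = 4.93e-06), which was the largest rise there, and Mat2b fell from 300.3 to 229 (−0.39 ± 0.06, adjusted p = 1.17e-06). Mat2a fell in both tissues, by −0.15 in embryos and −0.17 ± 0.06 (adjusted p = 0.0144) in yolk sacs. Of the serine and glycine genes, Psph (108 to 80.8, −0.40 ± 0.08, adjusted p = 0.000127), Amt (115 to 89.5, −0.34 ± 0.08, adjusted p = 0.00123) and Psat1 (−0.21) fell in embryos, where Psph and Psat1 lost their calls with litter sums (adjusted p = 0.0603 and 0.176), while in yolk sacs only Phgdh was called, and rose from 31 to 42.4 (0.44 ± 0.12, adjusted p = 0.00248).

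Of the 6 genes that build inosine monophosphate, Adsl, Ppat and Atic were called in both tissues, with the same signs, though in embryos the calls of Ppat and Atic were lost with litter sums (adjusted p = 0.124 and 0.0799). Adsl, which acts at 2 steps of the pathway, rose from 81.9 to 96.7 in embryos (0.25 ± 0.05, adjusted p = 0.000101) and from 80.1 to 110 in yolk sacs (0.44 ± 0.06, adjusted p = 2.81e-08). Ppat fell from 275 to 223 in embryos (−0.26 ± 0.06, adjusted p = 0.000142) and from 285 to 238 in yolk sacs (−0.24 ± 0.06, adjusted p = 0.00155). Atic, the enzyme of the last 2 steps, fell from 716 to 513 in yolk sacs (−0.37 ± 0.06, adjusted p = 2e-07) and by −0.23 in embryos. Impdh2 and Gmps were called in yolk sacs with small rises (0.17, adjusted p = 0.0251, and 0.18, adjusted p = 0.0254). Both calls were lost with litter sums, and in 12 and 9 of 23 fits that left out 1 litter or 1 library.

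The third comparison asked whether diabetes of the dam changed these genes in the conceptus. Few of them differed. In embryos of 5-6 somite pairs 1 of 30 genes tested was called (edgeR; 5 at an unadjusted p under 0.05), against 1.46% of 11004 genes. At 7-9 somite pairs 1 of 29 was called (7 unadjusted), against 9.09% of 10628 genes. In yolk sacs edgeR called 0 of 30 at either stage (5 and 2 unadjusted), against 0% of 10250 and 0.0194% of 10317 genes, and DESeq2 called 0 at 5-6 and 1, Atic, at 7-9. In the litter block fit (limma) and on litter sums (edgeR), 0 genes of the list were called in any of the 4 comparisons. These fits called few genes at all. For embryos of 5-6 somite pairs the whole transcriptome gave 4 calls with the litter block, then 0 with litter sums. For embryos of 7-9 it gave 314 (2.95%), then 8. Yolk sacs gave 1 call at 7-9 with the litter block, otherwise 0. The absence of calls was thus not particular to this list.

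The 95% intervals bound what these groups could hide. The interval of the log2 difference lay within a 1.5-fold change in either direction for 29 of 30 genes in embryos of 5-6 and 28 of 29 of 7-9 somite pairs, and for 28 and 30 of 30 in yolk sacs. These intervals treat littermates as independent. The sum of neural plate and tube markers was lower in diabetic than in normal embryos by median (1103 against 1345 at 5-6 and 1166 against 1365 at 7-9 somite pairs), with overlapping ranges and 0 of the 5 markers called by edgeR at either stage (2 and 3 at an unadjusted p under 0.05, all lower), and its part in the embryo results was not tested. In embryos the list had a median log2 difference of 0.01 (5-6) and 0.09 (7-9), and in yolk sacs one of −0.04 and −0.01, against 0.004, −0.010, −0.004 and 0.016 over all genes tested. Phgdh at both stages and Folr1 at 7-9 were too low to test in embryos, and Mthfd2l in yolk sacs.

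**Figure D4:**
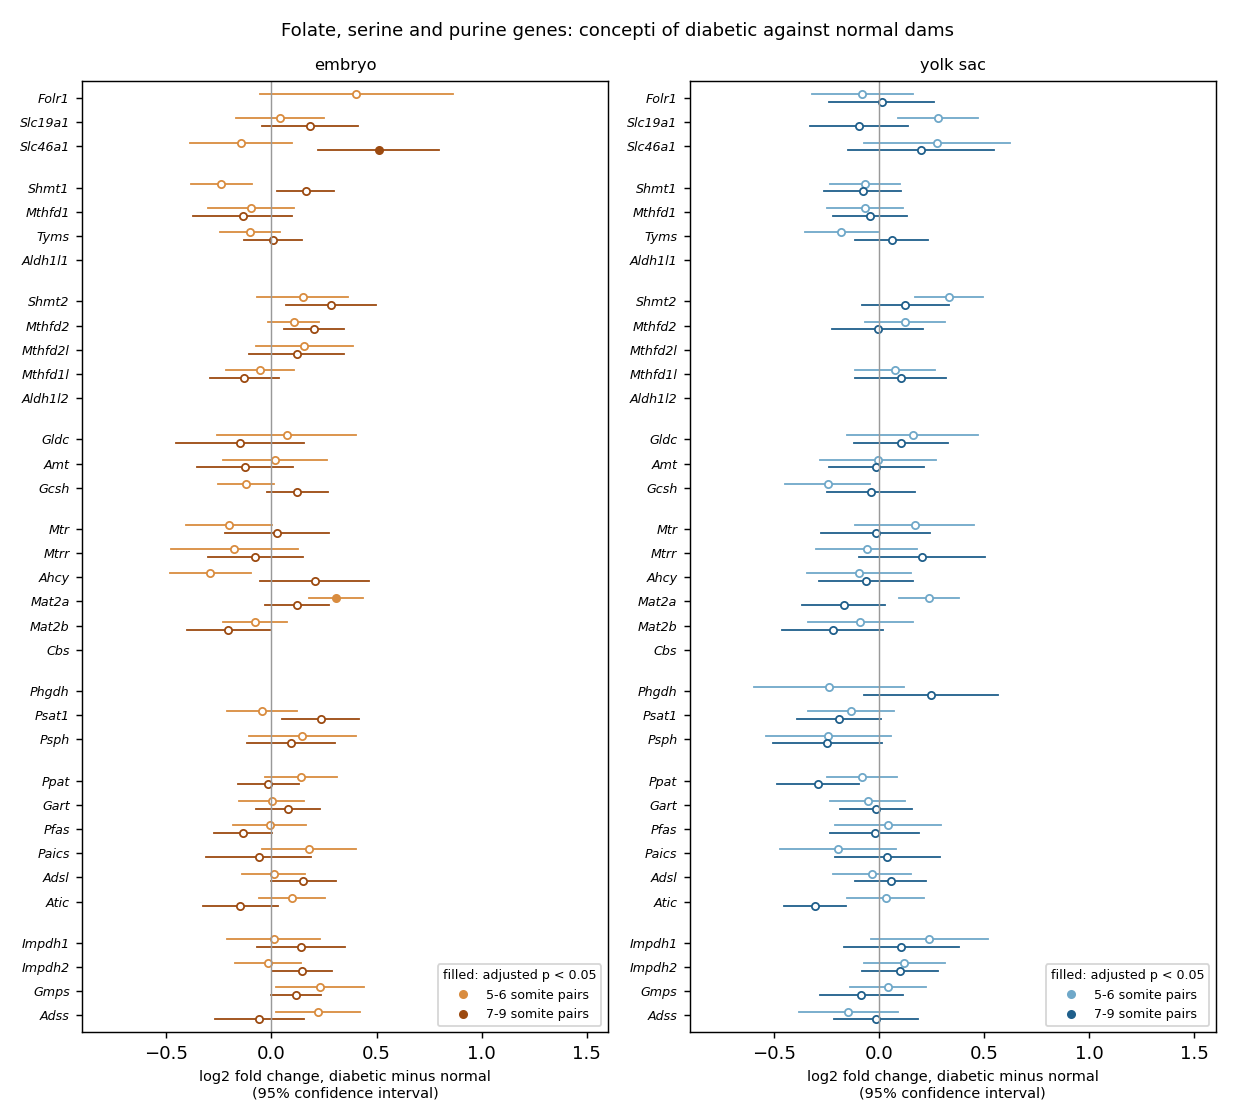
Log2 fold change (x axis, diabetic minus normal, with 95% confidence interval) of each gene (y axis, grouped by role) in embryos (left) and yolk sacs (right) at 5-6 (light) and 7-9 (dark) somite pairs; filled points passed an adjusted p of 0.05 in edgeR. The filled points are Mat2a at 5-6 (0.31) and Slc46a1 at 7-9 somite pairs (0.51), both in embryos.

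Mat2a, the enzyme that makes S-adenosylmethionine from methionine, was higher in embryos of diabetic dams at 5-6 somite pairs. With size factors of that tissue and stage it ranged from 853 through a median of 1065 to 1342 normalized counts in 17 normal embryos (mean 1087 ± 129 SD) and from 1153 through 1328 to 1661 in 17 diabetic embryos (mean 1348 ± 145 SD). The groups overlapped between 1153 and 1342, and the mean of each of the 9 diabetic litters lay above the median of the normal litter means (1068). The log2 difference was 0.31 ± 0.06 (95% interval 0.18 to 0.44, adjusted p = 0.0142, edgeR). The call was lost with the litter block (0.29, adjusted p = 0.116) and with litter sums (0.27, adjusted p = 0.35), and without litter D28M53 (0.25, adjusted p = 0.0877) or litter N28M06 (0.30, adjusted p = 0.0772). At 7-9 somite pairs the difference was 0.12 and was not called.

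Slc46a1, the proton-coupled folate carrier, was higher in embryos of diabetic dams at 7-9 somite pairs. It ranged from 9.66 through a median of 18.7 to 32.7 normalized counts in 16 normal embryos (mean 19.7 ± 6.02 SD) and from 17.2 through 28.8 to 42.1 in 16 diabetic embryos (mean 28.7 ± 7.38 SD). The groups overlapped over most of the normal range, and the means of all 6 diabetic litters lay above the median of the normal litter means (21.2). The log2 difference was 0.51 ± 0.14 (95% interval 0.22 to 0.80, adjusted p = 0.0229, edgeR). The call was lost with the litter block (0.52, adjusted p = 0.0606) and with litter sums (0.57, adjusted p = 0.143), and without litter D28M36 (0.45, adjusted p = 0.0608) or litter N28M06 (0.43, adjusted p = 0.0583).

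The remaining genes with an unadjusted p under 0.05 did not pass the adjusted threshold. In embryos of 5-6 somite pairs these were Shmt1 (−0.24 ± 0.07, adjusted p = 0.0676), Ahcy (−0.29 ± 0.10, adjusted p = 0.0893), Gmps (0.23) and Adss (0.22), and at 7-9 they were Mthfd2 (0.20, adjusted p = 0.0614), Shmt2 (0.28, adjusted p = 0.0787), Psat1 (0.23, adjusted p = 0.0889), Shmt1 (0.16), Mat2b (−0.20) and Impdh2 (0.15). In yolk sacs of 5-6 somite pairs they were Shmt2 (0.33 ± 0.08, adjusted p = 0.308), Mat2a (0.24), Slc19a1 (0.28), Gcsh (−0.24) and Tyms (−0.18), and at 7-9 Atic (−0.30 ± 0.07, adjusted p = 0.132) and Ppat (−0.29 ± 0.10, adjusted p = 0.308). Atic passed in DESeq2 (adjusted p = 0.00741), from 411 through 571 to 679 normalized counts in normal and 383 through 444 to 504 in diabetic yolk sacs of the 7-9 stage, groups that overlapped.

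Whether the 2 tissues responded differently to diabetes was tested as an interaction, and edgeR and DESeq2 called 0 of 31 genes at either stage (5 and 4 at an unadjusted p under 0.05 in edgeR), against 0% and 0.389% of all genes. The lowest adjusted p was that of Psat1 at 7-9 somite pairs (0.0888), with a diabetic-minus-normal difference of 0.23 in embryos and −0.19 in yolk sacs.

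Whether the 2 stages responded differently was tested in the same way. In yolk sacs edgeR and DESeq2 called 0 of 31 genes (5 unadjusted), against 0% of 10857 genes, with the lowest adjusted p for Mat2a (0.459). In embryos 3 of 31 were called, against 8.7% of 11304 genes: Shmt1, Slc46a1 and Ahcy. A count of 3 is near that background. Over all genes the main fit called 984, the litter block 1298 and litter sums 1. The diabetic-minus-normal difference of each went from below 0 at 5-6 to above 0 at 7-9 somite pairs.

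For Shmt1, Slc46a1 and Ahcy the group means below use size factors over the whole series, and the litter means those of the tissue and stage. Shmt1 had a mean of 252 ± 34.1 (SD, n = 17) normalized counts in normal and 213 ± 25.9 (n = 17) in diabetic embryos of 5-6 somite pairs, and 207 ± 23.3 (n = 16) and 232 ± 30.4 (n = 16) at 7-9. It was lower with diabetes at the younger stage in the means of all 9 diabetic litters, set against the median of the normal litters, and higher in 5 of 6 at the older stage. The interaction was 0.41 ± 0.10 (adjusted p = 0.00841; with the litter block 0.43, adjusted p = 0.00937; with litter sums 0.40, adjusted p = 0.168).

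Slc46a1 had means of 25.8 ± 4.89 and 23.4 ± 5.93 at 5-6 (n = 17 each) and 20.3 ± 6.26 and 29.6 ± 7.92 at 7-9 somite pairs (n = 16 each), in normal and diabetic embryos. The interaction was 0.67 ± 0.18 (adjusted p = 0.0191; litter block adjusted p = 0.0112; litter sums 0.70, adjusted p = 0.167), and it was lost without litter N28M06 (0.55, adjusted p = 0.0852). Ahcy had means of 341 ± 82.1 and 278 ± 39.4 at 5-6 and 254 ± 69.9 and 294 ± 80.6 at 7-9 somite pairs. Its diabetic litters lay below the normal litter median in 9 of 9 at the younger and above it in 6 of 6 at the older stage, and the interaction was 0.51 ± 0.16 (adjusted p = 0.0362; litter block adjusted p = 0.0208; litter sums 0.60, adjusted p = 0.177). Somite numbers were unequal within the older stage. Mean Ahcy in diabetic and normal embryos was 352 (n = 4) and 256 (n = 7) at 7 pairs, 255 (n = 9) and 277 (n = 4) at 8, and 335 (n = 3) and 232 (n = 5) at 9. At 8 pairs it was thus lower with diabetes. The call of Ahcy was lost when any of 8 of the 22 litters was left out, and when the 2 concepti with differing sex labels were (0.50, chosen after seeing the data). Counting every alternative, left-out litters included, the call of Ahcy was lost in 11 of 29. In all 3 genes the individual embryos of the normal and diabetic groups overlapped at both stages.

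**Figure D5:**
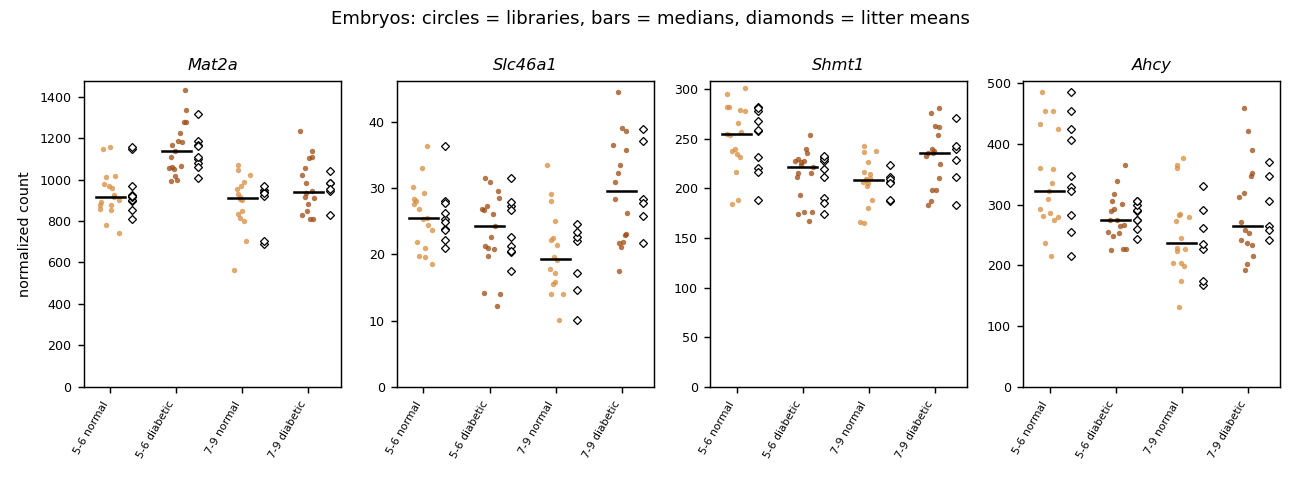
Normalized count (y axis, size factors over the whole series) of Mat2a, Slc46a1, Shmt1 and Ahcy in embryos by stage and condition of the dam (x axis); circles are libraries, bars group medians and diamonds litter means. The diabetic groups overlap the normal ones in each panel, and for Shmt1 and Ahcy the diabetic group lies lower at 5-6 and higher at 7-9 somite pairs.

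A wider list of 45 genes from the neighbouring reactions was read in the same fits. Between tissues 14 of 35 tested were higher and 12 lower in yolk sacs at 5-6, and 15 and 11 at 7-9 somite pairs, against the 39.4% and 39.8%, and 38.7% and 42.6%, of all genes. By role at 5-6 somite pairs, 8 were higher and 1 lower of 10 folate and glycine genes, 1 and 3 of 5 methionine and transsulfuration genes, 3 and 4 of 9 purine salvage genes and 1 and 3 of 8 pyrimidine genes. Between stages 4 of 32 rose and 3 fell in embryos (15% and 15.8% of all genes), and 8 of 37 rose and 4 fell in yolk sacs (21.7% and 18.3%). With diabetes 0 of 34 and 0 of 36 were called in yolk sacs by edgeR (5 and 1 at an unadjusted p under 0.05). In embryos 1 of 32 was called at 5-6 and 6 of 32 at 7-9 somite pairs, against 1.46% and 9.09% of all genes.

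In embryos Cth, which makes cysteine from cystathionine, was lower with diabetes at both stages. It had medians of 98.5 and 63.5 normalized counts in normal and diabetic embryos at 5-6 and of 92.9 and 66.6 at 7-9 somite pairs, with ranges that overlapped. The differences were −0.60 ± 0.14 (adjusted p = 0.0272; litter block adjusted p = 0.176) and −0.64 ± 0.19 (adjusted p = 0.0328; litter block adjusted p = 0.0922). Genes higher with diabetes at 7-9 somite pairs included Aprt, the adenine salvage enzyme (0.47 ± 0.10, adjusted p = 0.00435), Tk1, the thymidine salvage kinase (0.38 ± 0.10, adjusted p = 0.0117), Ctps2 (0.34) and Dhodh (0.24). Aprt and Tk1 kept an adjusted p under 0.05 with the litter block (0.0195 and 0.0339) and lost it with litter sums (0.0617 and 0.0677), and Ctps2 and Dhodh lost it in both. Aprt ranged from 280 through a median of 358 to 570 normalized counts in normal and from 351 through 525 to 754 in diabetic embryos. In the test of the difference between stages in embryos, 6 of 32 were called, against 8.7% of 11304 genes, and 9 with the litter block. Tk1, Dhodh, Guk1, Sfxn1 and Prps1 were among the 6, each with a more positive diabetic difference at 7-9 somite pairs. With litter sums 0 of the wider list passed, in a fit that called 1 gene over the whole transcriptome.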

How the data were processed

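Embryos and yolk sacs of NOD concepti were profiled with a 3′ tag method (QuantSeq, forward) with unique molecular identifiers. The authors aligned reads with STAR to mm10, collapsed identifiers and deposited raw counts per gene from HTSeq, with no normalization; versions and the strand setting are not given in the sources used here. Total counts per library ranged from 1017901 to 5757211. Of 26051 rows without a symbol, 25646 were given one from GENCODE M21. The 4 repeat libraries entered no test.

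Counts were tested with edgeR 4.0.16 in R 4.3.3 (quasi-likelihood, TMM, filterByExpr with a minimum count of 10, Benjamini-Hochberg adjustment over all genes, threshold 0.05). Embryo and yolk sac were compared in 1 fit per stage, and stages in 1 fit per tissue. Normalized counts were divided by size factors over the whole series, or, for diabetic against normal groups within a stage, over 1 tissue and stage. Litter was a random block in limma 3.58.1 (voom, duplicateCorrelation) or was summed over, and DESeq2 1.42.0 was an alternative. The labels tie each embryo to the yolk sac of its own conceptus; deviations of these pairs from their group means correlated with medians of 0.105 (34 pairs, 5-6) and 0.0441 (32 pairs, 7-9). Scripts were tested on simulated data. Promoters are from RefSeq (GRCm38.p6).

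The genes and lists were chosen with earlier results of these data known. By rule, genes called with diabetes are given in full, and for tissue and stage the 5 largest rises and falls; others are given by role. Of the wider list, 1 gene is not reported here.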

Additional observations from a re-analysis of the deposited data

Results flagged for a closer look

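The response of 3 genes to diabetes of the dam differed between the stages in embryos, by the test of the difference itself (7-9 minus 5-6 somite pairs, log2 scale, edgeR). These were Shmt1 (0.41), Slc46a1 (0.67) and Ahcy (0.51), each lower in diabetic than in normal embryos by mean at 5-6 and higher at 7-9 somite pairs. A count of 3 of 31 is near the 8.7% of all genes called in this test. Slc46a1 lost its call without litter N28M06, and Ahcy lost it in 8 of the 22 fits that left out 1 litter. Over all 29 alternatives the call was lost in 11 for Ahcy, 2 for Slc46a1 and 1 for Shmt1. None was called with counts summed per litter (adjusted p from 0.167 to 0.177). That fit called 1 gene over the whole transcriptome, against 984 without the sums, so the loss was not particular to these 3.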

How the results depend on the processing

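No result changed direction under any alternative run, and 105 of 116 values that answer a comparison, left-out litters aside, stayed on their side of the threshold or within 1.5 times the count. With diabetes in embryos of 5-6 somite pairs 1 gene was called, against 2 with DESeq2 and 2 with all 8 groups in 1 fit (both add Shmt1), 0 with the litter block and 0 with litter sums. At 7-9 somite pairs 1 became 4 with the number that opens the library title as a covariate, 0 with the litter block and 0 with litter sums. In yolk sacs of 7-9 somite pairs 0 became 1 with DESeq2. Between stages in embryos 3 rises became 5 with the litter block. Chosen after seeing the data, litter sums turned 9 falls into 3 and the 3 embryo stage interactions into 0. Over all genes, litter sums took the stage calls in embryos from 3484 to 1727 and the stage interactions there from 984 to 1. Over all genes the diabetes calls in embryos also moved, from 161 to 500 (DESeq2), 4 (litter block) and 0 (litter sums) at 5-6, and from 966 to 1714 (title number), 314 and 8 at 7-9. The 500 of DESeq2 were called without the count filter of edgeR, among 27806 genes with any count (1.8%), against 1.46% of 11004 for the 161. The 27806 include genes that DESeq2 can leave without an adjusted p under its own filter. The 2 percentages thus have unlike bases.

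Leaving out each litter in turn gave 0 to 3 genes called with diabetes in embryos at either stage and 0 to 0 in yolk sacs. Where a fit held replicate 15 of the diabetic 7-9 yolk sacs, the ranges here also cover the run without that library. It gave 13 to 15 higher and 12 to 14 lower between tissues at 5-6, and 14 to 16 and 13 to 13 at 7-9. The tissue interaction gave 0 to 0 and 0 to 1. Between stages it gave 3 to 4 rises and 7 to 9 falls in embryos, 5 to 8 and 5 to 7 in yolk sacs, and 1 to 4 and 0 to 0 interactions. Ahcy lost its stage interaction in 8 of 22 such fits.

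With conceptus as a block, the pairing that the labels give, 13 genes were higher and 13 lower at 5-6, and 15 and 13 at 7-9, and the block changed no call. Without replicate 15 of the diabetic 7-9 yolk sacs, or without 2 concepti whose libraries carry different sex labels, both chosen after seeing the data, 6 genes rose and 6 fell between stages in yolk sacs. The causes were not tested. Phgdh, Slc46a1 and Folr1 in embryos had few counts, which limits what could be detected there, and the number of litters limits every comparison with diabetes.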
